A study of Mus musculus with 6 samples.

Results

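The Ifi200 genes and Aim2 form a cluster of related interferon-inducible genes on mouse chromosome 1, and 6 of them (Aim2, Ifi202b, Ifi203, Ifi204, Ifi205 and Mndal) were followed here by their symbols among the 32801 genes of the table. RNA had been sequenced from regulatory T cells (Treg) of the thymus, which keep other immune cells in check, of NOD mice and of C57BL/6 (B6) mice, with 3 libraries per strain and all mice aged 3 weeks. NOD mice develop autoimmune diabetes spontaneously, and B6 is the strain of the mm10 reference genome. In both strains the sorted cells lacked GFP, expressed CD4 and Thy1.1 and lacked CD8, and the labels do not say what GFP or Thy1.1 report, or whether replicates came from separate mice or pools. The p-values therefore measure the spread between these libraries, which may be technical. The design gives a single comparison, NOD against B6 at the same age and with the same sort.

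The genes encode the mouse PYHIN proteins. A typical member carries an N-terminal pyrin domain, through which it binds other proteins, and a C-terminal HIN-200 domain, which binds DNA. AIM2 senses double-stranded DNA in the cytosol and recruits the adaptor ASC (gene Pycard) and caspase-1 into an inflammasome, which matures interleukin-1 beta and interleukin-18 and cleaves gasdermin D. In mouse Treg, AIM2 has also been described as a restraint on AKT and mTOR signalling. The p202 protein of Ifi202b has HIN domains but no pyrin domain and inhibits mouse AIM2, and Ifi202b is known as a lupus susceptibility candidate of NZB mice. Type I interferon induces most of the family through the transcription factor complex ISGF3, which binds interferon-stimulated response elements in promoters.

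The table holds 14 rows of the cluster: the 6 genes followed here and 8 others, namely Ifi206, Ifi207, Ifi208, Ifi209, Ifi211, Ifi213, Ifi214 and the pseudogene Ifi203-ps. They lie within 680.9 kb of chromosome 1 (mm10, GENCODE M21). Aim2 stands at the low-coordinate end (chr1:173350879-173466040, plus strand). Ifi204 (chr1:173747293-173766943), Mndal (chr1:173849126-173942491), Ifi203 (chr1:173920407-173942672), Ifi202b (chr1:173962568-173982744) and Ifi205 (chr1:174011998-174031810) follow on the minus strand, and all 6 are annotated as protein-coding. The annotated model of Mndal runs across Ifi211 and into Ifi203, with which it shares 37 exonic bases.

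Promoter sequences are shown first, because some genes of this cluster share near-identical stretches around a motif in the B6 reference. RefSeq promoter windows (GRCm38.p6, 250 bases before to 50 after each annotated start) were available for 12 of the 14 genes, and for all of the 6 but Ifi204. They were searched on both strands for GAAANNGAAA, the core of the interferon-stimulated response element. No other motif was searched, so no overlap with another was scored. The motif stood in 9 of the 12 genes, against 3.99% of the 27025 genes with a window (3.44% of all 32851 windows). Ifi203, Mndal and Ifi205 held it, while the windows of Aim2 and Ifi202b held no match. The 60 bases around the motif are given below for the 3 genes followed here that hold it. They are also given for 4 neighbours in the cluster that hold it and differed between the strains. Ifi209 also differed between the strains, but its window held no match. Capitals mark the motif, and each sequence runs 5′ to 3′ along the gene.
Ifi203: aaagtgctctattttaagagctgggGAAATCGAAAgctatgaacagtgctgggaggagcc
Mndal: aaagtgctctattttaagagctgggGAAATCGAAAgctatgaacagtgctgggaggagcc
Ifi205: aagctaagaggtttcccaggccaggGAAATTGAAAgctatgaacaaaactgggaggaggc
Ifi206: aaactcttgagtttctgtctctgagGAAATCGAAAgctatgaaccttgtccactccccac
Ifi208: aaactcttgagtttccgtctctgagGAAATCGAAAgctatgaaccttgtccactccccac
Ifi213: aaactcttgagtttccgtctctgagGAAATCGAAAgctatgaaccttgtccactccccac
Ifi214: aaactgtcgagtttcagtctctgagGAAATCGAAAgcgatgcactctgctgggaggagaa
These are chr1:173942493-173942552 (minus) for Ifi203, chr1:173880189-173880248 (minus) for Mndal, chr1:174031855-174031914 (minus) for Ifi205, chr1:173491324-173491383 (minus) for Ifi206, chr1:173673582-173673641 (plus) for Ifi208, chr1:173599311-173599370 (minus) for Ifi213 and chr1:173536002-173536061 (minus) for Ifi214. The stretches of Ifi203 and Mndal were identical at 60 of 60 bases, as were those of Ifi208 and Ifi213. Ifi206 matched Ifi213 at 59 of 60. All are B6 reference sequence, and the NOD sequence was not used here. A match describes the letters and is no evidence of binding.

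Values are normalized counts: gene counts scaled by the authors with library size factors and rounded. They summed to between 16097369 and 17625903 per library, and the depth estimated from the gaps left by rounding was 15500000 to 21600000 reads, though the fit behind this estimate was weak for NOD library 2. Libraries carry the numbers of the table's columns (NOD 2, 10 and 18, B6 4, 12 and 20). Foxp3, the Treg lineage transcription factor, was present in every library and averaged 2018 ± 305 in NOD libraries and 2061 ± 344 in B6 libraries (SD, n = 3 each). Genes reaching 10 normalized counts in 3 or more libraries were tested with limma on log2(value + 1), and a call means an adjusted p below 0.05 (Benjamini-Hochberg, over 16442 genes). Of these genes, 4.59% were called higher and 5.30% lower in NOD, 9.89% in either direction, and in 24.1% the libraries of the strains did not overlap. Of 7 Treg markers, Foxp3 among them, 1 was called higher and 0 lower in NOD. The called marker was Cd3e, at 1916 ± 279 in NOD and 1115 ± 81.5 in B6 (log2 fold change 0.77, limma adjusted p = 0.0022). Unadjusted p was below 0.05 for 2 higher markers, Cd3e included, and 1 lower marker. In bulk RNA, fewer cells of a type and less RNA per cell cannot be told apart.

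Of the 6 genes, Ifi204 rose and Mndal fell in NOD, Aim2, Ifi203 and Ifi202b did not pass the test, and Ifi205 was too low to be tested. The 3 abundant genes, Mndal, Ifi203 and Aim2, differed by less than 1 log2 unit between the strains. Ifi202b passed the filter only through the NOD libraries, so its separation was in part set by the filter. With 6 genes, 1 call in each direction can be read only against the shares above.

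Aim2, the cytosolic DNA sensor, had 944, 904 and 908 normalized counts in NOD libraries 2, 10 and 18, against 806, 858 and 769 in B6 libraries 4, 12 and 20. Every NOD library lay above every B6 library, by a small margin. Means were 919 ± 22.0 for NOD libraries and 811 ± 44.7 for B6 libraries (SD, n = 3 each). The log2 fold change of 0.18 ± 0.11 (SE, 95% interval -0.06 to 0.42) did not pass the test (adjusted p = 0.42 by limma). That interval leaves room for a difference of 0.42 on the log2 scale toward higher values in NOD.

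Mndal, the myeloid nuclear differentiation antigen-like gene, was the most abundant of the 6. It had 2811, 2605 and 2883 normalized counts in NOD libraries 2, 10 and 18, against 4380, 3652 and 3710 in B6 libraries 4, 12 and 20. The strains did not overlap, and B6 library 4 was the highest of all. Mndal fell to 2766 ± 144 in NOD, against 3914 ± 405 in B6. Its log2 fold change was -0.50 (SE 0.11, adjusted p = 0.012 by limma). The call was lost without B6 library 4 (-0.41, adjusted p = 0.070) and without the trend in limma's variance model (adjusted p = 0.091). In the authors' deposited table Mndal had a log2 fold change of -0.50 with an adjusted p of 0.10.

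Ifi203, a nuclear PYHIN protein whose annotated model overlaps that of Mndal, had 2005, 1626 and 1673 normalized counts in NOD libraries 2, 10 and 18, against 2261, 1840 and 1736 in B6 libraries 4, 12 and 20. The strains overlapped. The log2 fold change was -0.13 ± 0.13 (SE, 95% interval -0.42 to 0.15), which did not pass limma's test (adjusted p = 0.66). Summed with Mndal, the pair reached 4816, 4231 and 4556 in NOD libraries 2, 10 and 18, against 6641, 5492 and 5446 in B6 libraries 4, 12 and 20.

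Ifi204, whose p204 protein takes part in DNA sensing upstream of STING in mouse macrophages, was low in both strains. It had 80, 59 and 74 normalized counts in NOD libraries 2, 10 and 18, against 12, 11 and 17 in B6 libraries 4, 12 and 20. The lowest NOD library stood well above the highest B6 library. Ifi204 rose to 71.0 ± 10.8 in NOD, against 13.3 ± 3.21 in B6, which is 5.06-fold on the fitted scale. Its log2 fold change was 2.34 (SE 0.32, adjusted p = 0.00057 by limma). In the authors' deposited table it was 2.44 with an adjusted p of 1.4e-08. The call held in all 15 alternatives, with log2 fold changes of 1.80 to 2.52.

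Ifi202b had 10, 23 and 16 normalized counts in NOD libraries 2, 10 and 18, against 7, 2 and 0 in B6 libraries 4, 12 and 20. Every NOD library was above every B6 library, at values where a few reads decide the ratio. With a log2 fold change of 2.52 (SE 0.75) and an adjusted p of 0.060 by limma, it did not pass the test. It passed without B6 library 4 (3.25, adjusted p = 0.027) and with a pseudocount of 10 (1.02, adjusted p = 0.044). In the authors' deposited table the adjusted p was 0.21.

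Ifi205, described in mouse macrophages as a regulator of ASC expression, was near the limit of detection and was not tested. It had 0, 1 and 1 normalized counts in NOD libraries 2, 10 and 18, against 4, 3 and 6 in B6 libraries 4, 12 and 20. With no filter on low values, limma gave it -1.71 on the log2 scale (SE 0.61, adjusted p = 0.16).

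**Figure D1:**
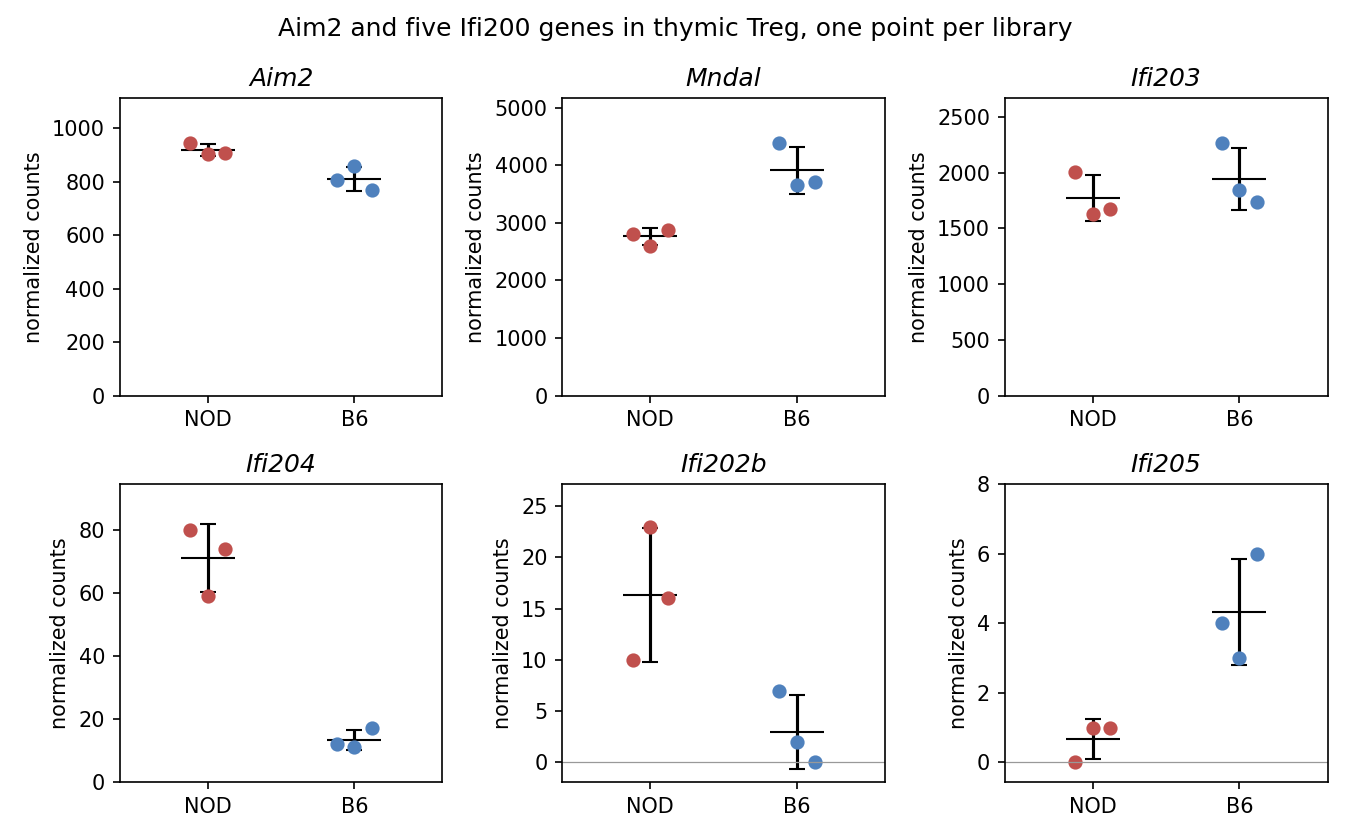
Normalized counts of Aim2, Mndal, Ifi203, Ifi204, Ifi202b and Ifi205 in thymic Treg, with 1 point per library, NOD left and B6 right. Horizontal bars are means and error bars the SD over 3 libraries, each panel has its own linear axis, and Ifi204 stands at 59 to 80 in NOD and 11 to 17 in B6.

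Summed over the 6 genes, the cluster had 5850, 5218 and 5555 normalized counts in NOD libraries 2, 10 and 18, against 7470, 6366 and 6238 in B6 libraries 4, 12 and 20. The sum in NOD was 5541 ± 316, which was 82.8% of the 6691 ± 677 in B6. As a score over chosen genes, it was not tested. In NOD, Mndal made up 50.0% ± 1.92 of the sum, Ifi203 31.9% ± 2.16 and Aim2 16.6% ± 0.634, while in B6 Mndal made up 58.5% ± 1.06, Ifi203 29.0% ± 1.22 and Aim2 12.2% ± 1.35 (SD, n = 3 per strain). Ifi204 took 1.28% ± 0.128 in NOD and 0.202% ± 0.0614 in B6, so Ifi204 had little weight in the sum.

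The 8 other cluster genes held 5 further calls. Of the 7 tested, Ifi206, Ifi208, Ifi209 and Ifi213 fell and Ifi214 rose in NOD, while Ifi211 and Ifi203-ps did not pass the test. The median log2 fold change of these 7 was -0.64, against 0.01 over all tested genes, of which 4.59% were called higher and 5.30% lower. Ifi203-ps passed the filter only through the NOD libraries, and limma gave it an adjusted p of 0.076 (0.049 with quantile normalization). In the authors' deposited table its log2 fold change was 1.71 with a DESeq2 adjusted p of 0.027. Ifi207, with 0 to 2 normalized counts in NOD and 2 to 20 in B6, was too low to be tested.

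Ifi213, a paralog listed in RefSeq also as Pydc4, stood far lower in NOD. It had 28, 20 and 16 normalized counts in NOD libraries 2, 10 and 18, against 1200, 1227 and 1176 in B6 libraries 4, 12 and 20. Ifi213 fell by 5.79 on the log2 scale (SE 0.21, limma adjusted p = 2.0e-08), and only 21 of the 16442 tested genes had a lower fold change. This was the widest separation of any gene in the cluster.

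Ifi209, listed also as Pyhin1, had 1038, 785 and 773 normalized counts in NOD libraries 2, 10 and 18, against 2569, 2288 and 2822 in B6 libraries 4, 12 and 20. It fell by 1.57 on the log2 scale (limma adjusted p = 2.2e-05). Ifi206 fell by 2.24, to 77.0 ± 7.94 in NOD against 369 ± 62.4 in B6 (limma adjusted p = 1.7e-05). All NOD libraries lay below all B6 libraries for both genes, and both calls held in every alternative.

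Ifi208, listed also as Pydc3, had 248, 210 and 218 normalized counts in NOD libraries 2, 10 and 18, against 353, 386 and 317 in B6 libraries 4, 12 and 20. It fell by 0.64 on the log2 scale (SE 0.15, adjusted p = 0.019 by limma), with no overlap between the strains. Leaving out NOD library 18, B6 library 4 or B6 library 12 ended that call, with adjusted p of 0.082, 0.080 and 0.084. Ifi214 had 537, 349 and 321 in NOD libraries 2, 10 and 18, against 217, 235 and 226 in B6 libraries 4, 12 and 20. It rose by 0.79 on the log2 scale (SE 0.19, adjusted p = 0.023 by limma), with NOD library 2 well above the other NOD libraries. Its call was lost without NOD library 2 or any single B6 library (adjusted p of 0.058 to 0.094) and without the trend (0.097).

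The promoter stretches can be read beside these values. Ifi208 and Ifi213 share an identical stretch around the motif and Ifi206 differs from both at 1 base, while their log2 fold changes were -0.64, -5.79 and -2.24. Ifi203 and Mndal, also identical there, had log2 fold changes of -0.13 and -0.50. Ifi204, with the highest called fold change in the cluster, had no window, and the window of Ifi202b held 0 matches of the motif. The window of Ifi209, with a log2 fold change of -1.57, also held 0 matches. The interferon receptors and ISGF3 relay the signal to these elements. Of 15 genes listed for them, limma called 0 in either direction (9.89% over all tested genes), and 2 had an unadjusted p below 0.05. Ifnar2, the lower of these in NOD, averaged 808 ± 10.5 in NOD and 965 ± 58.7 in B6 (limma adjusted p = 0.21). Ifngr2, the higher in NOD, averaged 859 ± 101 in NOD and 673 ± 76.8 in B6 (limma adjusted p = 0.16). The ISGF3 subunit gene Stat2 averaged 1222 ± 79.0 in NOD and 1315 ± 107 in B6, and Irf9 3006 ± 190 in NOD and 2821 ± 231 in B6. The part of promoter sequence or of interferon in the strain differences was not tested.

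**Figure D2:**
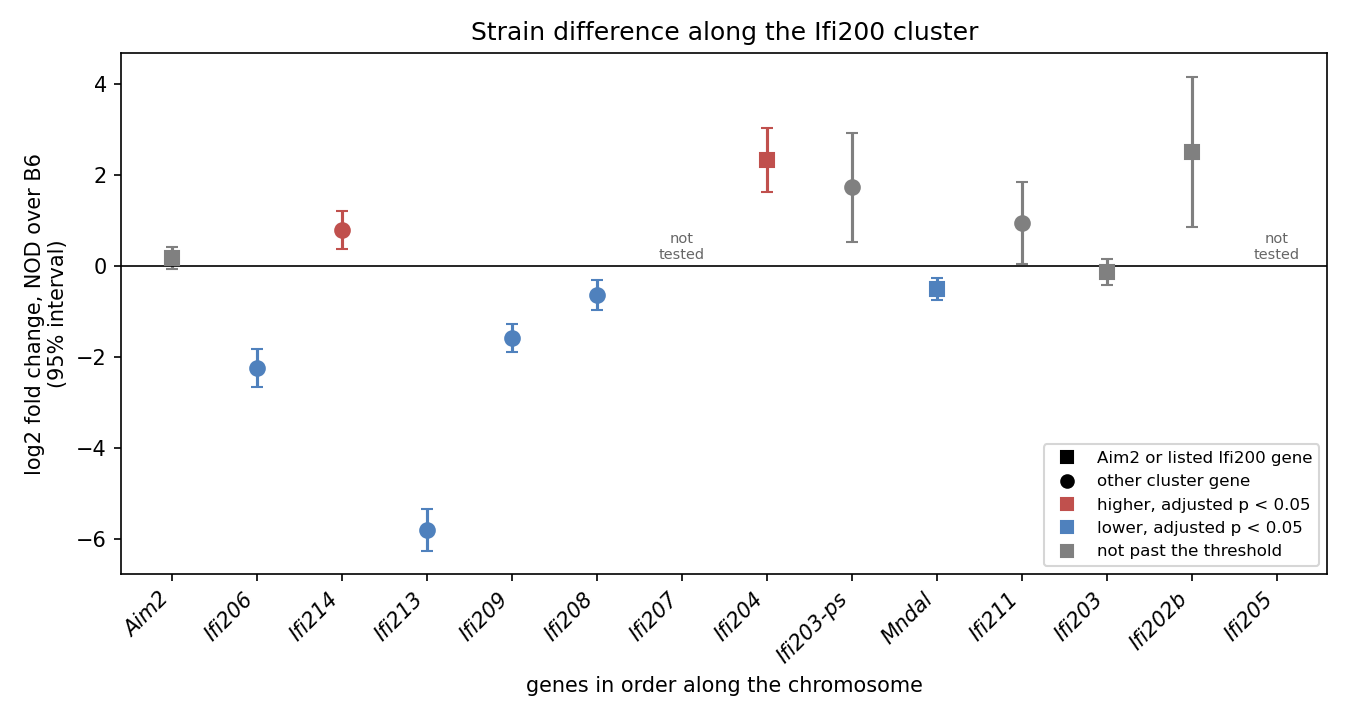
Log2 fold change of NOD over B6 for the 14 cluster genes in their order along the chromosome, with 95% intervals from limma. Squares are the 6 genes followed here and circles the 8 others, red marks genes called higher in NOD, blue genes called lower (adjusted p below 0.05) and grey no call. Values run from -5.79 for Ifi213 to 2.52 for Ifi202b, and Ifi207 and Ifi205 were not tested.

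Over all 14 rows, the sum was 7835, 6715 and 6986 normalized counts in NOD libraries 2, 10 and 18, against 12226, 10941 and 11116 in B6 libraries 4, 12 and 20. The NOD mean was 62.8% of the B6 mean, a larger deficit than over the 6 genes. Ifi213 made up 0.295% ± 0.0642 of it in NOD libraries and 10.5% ± 0.701 in B6 libraries (SD, n = 3 per strain).

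**Figure D3:**
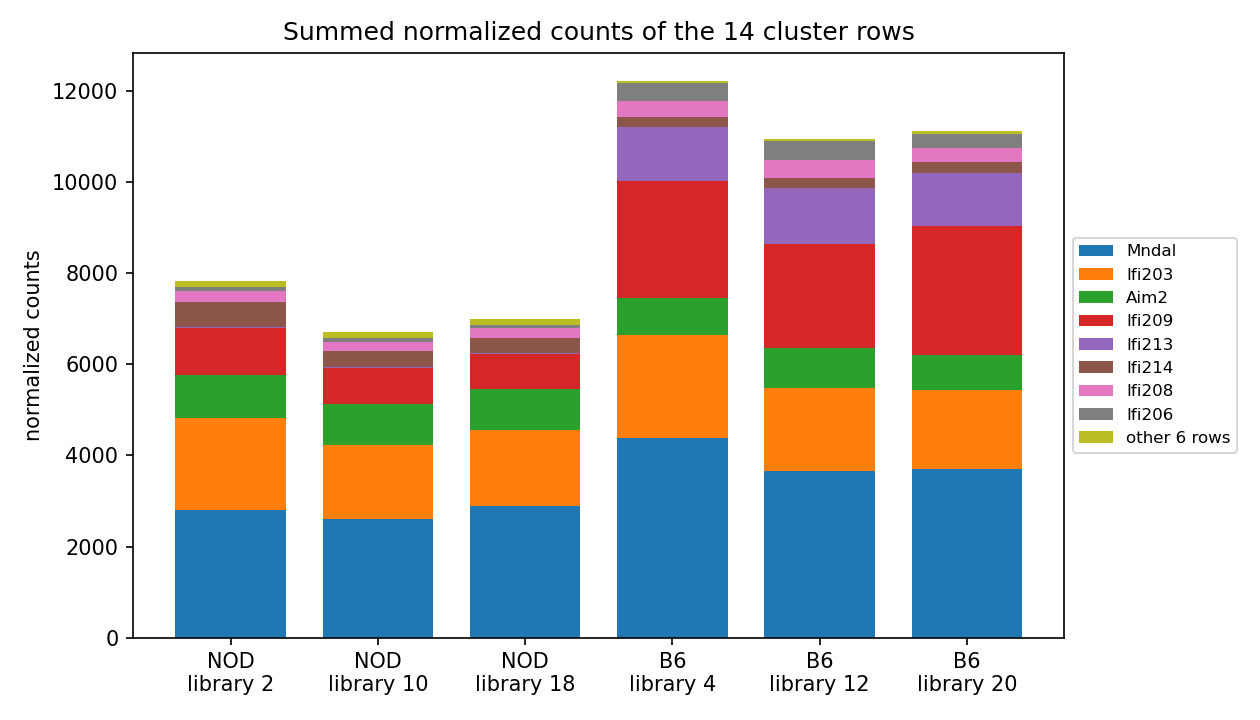
Summed normalized counts of the 14 cluster rows in each library, NOD libraries left and B6 libraries right, with colours for the 8 most abundant genes and the other 6 rows together. Sums run from 6715 to 7835 in NOD and from 10941 to 12226 in B6, and the band of Ifi213 (1176 to 1227 in B6) is barely visible in NOD.

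Levels of different genes were compared per kb of annotated exon (GENCODE M21), since longer genes collect more reads. In NOD, Mndal led at 762 ± 39.8 normalized counts per kb, followed by Ifi203 at 264 ± 30.8, Aim2 at 262 ± 6.29 and Ifi209 at 244 ± 42.2, whose libraries overlapped. Ifi214 (49.6 ± 14.5) and Ifi208 (42.9 ± 3.81) also overlapped each other, and so did Ifi206 (25.2 ± 2.60) and Ifi204 (19.9 ± 3.04). Ifi202b stood at 9.62 ± 3.83, Ifi213 at 3.12 ± 0.893 and Ifi205 at 0.160 ± 0.138 per kb (SD, n = 3).

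In B6 the order per kb differed. Mndal led at 1079 ± 112, and Ifi209 came second at 722 ± 75.3 with no overlap to Ifi203 at 290 ± 41.5. Aim2 (232 ± 12.8), Ifi213 (176 ± 3.73), Ifi206 (121 ± 20.4), Ifi208 (66.9 ± 6.56) and Ifi214 (27.9 ± 1.11) followed without overlap between neighbours. Ifi204 (3.74 ± 0.903), Ifi202b (1.77 ± 2.12) and Ifi205 (1.04 ± 0.366) were the lowest of the 6, and Ifi202b overlapped the other two. Per kb, Ifi213 was thus between Aim2 and Ifi206 in B6 and below Ifi202b in NOD.

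Reads of paralogs can be shared in counting, so the share of each gene's spliced sequence that recurs elsewhere was measured in GENCODE M21 transcripts. Of 50-base words, 0% of Ifi202b's recurred in any other gene, and for Aim2 0.6%, none of them in the cluster. The share recurring in other cluster genes was 12.2% for Ifi203, 17.7% for Mndal, 19.2% for Ifi204 and 18.6% for Ifi205. It was 15.6% for Ifi213, 33.4% for Ifi209, all of it shared with Ifi214, and 72.8% for Ifi211. With 100-base words these shares were 2.8% for Ifi203, 5.9% for Mndal, 10.7% for Ifi204, 3.3% for Ifi213, 16.9% for Ifi209 and 56.9% for Ifi211. The sources used here give neither the read length nor the treatment of reads with several matches, and all values of genes with shared words are uncertain for this reason, with the widest sharing in Ifi211 and Ifi209. Reads of both strains were aligned to mm10, which is B6 sequence, so a lower level in NOD and a lower rate of alignment of NOD reads cannot be told apart for any gene here.

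Few genes around the cluster reached the filter. Within 1 Mb on either side of the 6 genes, the annotation places 67 other genes, 28 of them in the table and 5 tested, of which 2 were called higher and 0 lower in NOD (4.59% and 5.30% over all tested genes). Tagln2, an actin-binding protein gene, had 3150, 3474 and 3368 normalized counts in NOD libraries 2, 10 and 18, against 2117, 2353 and 2871 in B6 libraries 4, 12 and 20, and rose by 0.46 on the log2 scale (adjusted p = 0.038 by limma). The unclassified transcript Gm37145 had 20, 19 and 22 in NOD libraries 2, 10 and 18, against 7, 6 and 3 in B6 libraries 4, 12 and 20, and was also called higher (adjusted p = 0.028 by limma). Gm37145 passed the filter only through the NOD libraries. The call of Tagln2 was lost without any single library but B6 library 20 (adjusted p of 0.067 to 0.18), and that of Gm37145 without any but B6 library 4 (0.057 to 0.13). Pigm, Igsf9 and Gm37125 did not pass the test. Olfactory receptor genes and pseudogenes make up 26 of the 67, and the 3 of them in the table were at 0 in every library.

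The partners of AIM2 in the inflammasome were present in the sorted cells. Pycard, which encodes ASC, averaged 527 ± 4.58 in NOD and 431 ± 52.0 in B6 (log2 fold change 0.30, 95% interval 0.01 to 0.59, limma adjusted p = 0.24). Casp1, the caspase-1 gene, averaged 344 ± 81.9 in NOD and 233 ± 27.4 in B6 (0.54, adjusted p = 0.11). Gsdmd, the pore-forming gasdermin, averaged 1187 ± 176 in NOD and 1076 ± 31.0 in B6 (0.13, adjusted p = 0.65). None of the 3 passed the test. Il18 was at 4 to 6 normalized counts in NOD and 2 to 15 in B6 and was not tested.

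Of 17 inflammasome genes listed besides Aim2, 14 were tested. Of these, 2 were called higher and 3 lower in NOD (4.59% and 5.30% over all tested genes). Unadjusted p was below 0.05 for 6 higher and 3 lower genes, the called genes included. Among the 6 were Casp4 (log2 fold change 0.62, limma adjusted p = 0.068) and Panx1 (0.30, limma adjusted p = 0.14). The median log2 fold change of the 14 was 0.18, against 0.01 over all tested genes. Of the 5 calls, only Casp8 passed the filter through both strains. Casp8, which encodes the apoptotic caspase-8, also recruited to AIM2 complexes, fell to 1355 ± 81.9 in NOD, against 1841 ± 163 in B6 (-0.44 ± 0.11, SE, limma adjusted p = 0.026). Its call was lost without NOD library 2 or 18 or B6 library 4 or 20 (adjusted p of 0.055 to 0.13) and without the trend (0.12).

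Among sensors that nucleate other inflammasomes, Nlrp1a and Nlrc4 were higher and Nlrp3 was lower in NOD, while Nlrp1b (4 to 5 in NOD, 5 to 23 in B6) and Mefv (0 to 2 in NOD, 1 to 3 in B6) overlapped and were too low to be tested. Nlrp1a had 262, 229 and 292 normalized counts in NOD libraries 2, 10 and 18, against 0, 1 and 0 in B6 libraries 4, 12 and 20 (limma adjusted p = 4.5e-07), and its fold change depends on the pseudocount. Nlrc4 had 57, 92 and 96 in NOD libraries 2, 10 and 18, against 14, 1 and 7 in B6 libraries 4, 12 and 20 (adjusted p = 0.0026). In each, every NOD library lay above every B6 library. Nlrp3 had 1, 0 and 2 in NOD libraries 2, 10 and 18, against 11, 29 and 70 in B6 libraries 4, 12 and 20 (adjusted p = 0.0036). Il1b, the interleukin-1 beta gene, had 7, 1 and 6 in NOD libraries 2, 10 and 18, against 32, 33 and 205 in B6 libraries 4, 12 and 20 (adjusted p = 0.0080). B6 library 20 was the highest library for both, and the call of Il1b was lost without the trend (adjusted p = 0.066). The same library was the highest for 4 of 10 macrophage and monocyte markers (Adgre1 22, Tyrobp 44, Csf1r 25 and Itgam 5), and not for the other 6, and the part of such cells in these calls was not tested.

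**Figure D4:**
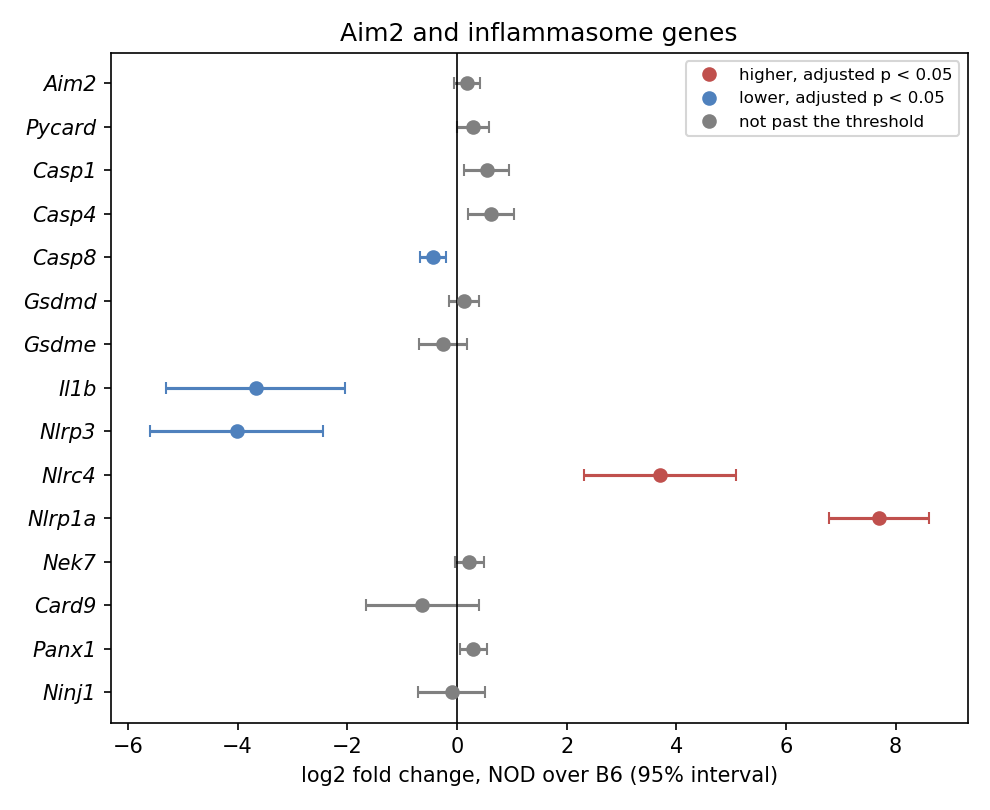
Log2 fold change of NOD over B6 with 95% intervals from limma for Aim2 and the 14 tested inflammasome genes, with red and blue for calls higher and lower in NOD and grey for no call. Aim2, Pycard, Casp1 and Gsdmd lie between 0.13 and 0.54, while Il1b, Nlrp3, Nlrc4 and Nlrp1a, which passed the filter through 1 strain only, lie beyond 3.67 in either direction.

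DNA sensing by cGAS and STING is the other cytosolic pathway. Of 20 listed genes tested, limma called 1 higher and 0 lower in NOD (4.59% and 5.30% over all tested genes). Unadjusted p was below 0.05 for 2 higher genes, Samhd1 included, and 1 lower gene. The other higher gene was Zbp1, at 1339 ± 163 in NOD and 982 ± 138 in B6 (0.45, limma adjusted p = 0.063). The lower gene was Rnaseh2c (-0.59, limma adjusted p = 0.22). Samhd1, a dNTP hydrolase that restrains DNA sensing, rose to 12195 ± 152 in NOD, against 9048 ± 168 in B6 (0.43 ± 0.09, SE, limma adjusted p = 0.012). The call of Samhd1 was lost without NOD library 2, NOD library 18 or B6 library 12 (adjusted p of 0.052, 0.060 and 0.056) and without the trend (0.077). Cgas averaged 121 ± 18.8 in NOD libraries and 104 ± 5.69 in B6 libraries, and Tmem173, which encodes STING, averaged 1384 ± 186 in NOD and 1172 ± 87.3 in B6. Neither of these passed the test.

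Markers of other cells that the sort could hold were measured beside the cluster. The 10 macrophage and monocyte markers summed to 185 to 263 normalized counts in NOD and 221 to 284 in B6, with 4 of the 10 below 20 in every library, among them Itgam (2 to 5), Fcgr1 (0 to 4) and Spi1 (0 to 6). Tyrobp, the only one called, was lower in NOD, but it passed the filter through the B6 libraries alone and lost its call in 5 of the 6 omissions of a library. Their sum was mainly Cd68 (66 to 91 in NOD, 74 to 102 in B6) and Mpeg1 (80 to 116 in NOD, 35 to 77 in B6). Unadjusted p was below 0.05 for 2 lower markers, Tyrobp and Lyz2, and 1 higher marker, Mpeg1. Lyz2 had 3 to 15 in NOD and 13 to 38 in B6 (limma adjusted p = 0.068). Adgre1, not tested, had 0 to 2 in NOD and 9 to 22 in B6. The 6 B cell markers summed to 151 to 210 in NOD and 176 to 224 in B6, with Pax5 at 0 to 3. Ms4a1, not tested, was at 0 to 4 in NOD and 6 to 10 in B6. Ebf1 was at 14 to 17 in NOD and 29 to 52 in B6 (-1.19, limma adjusted p = 0.064). Cd79a was higher, at 56 to 86 in NOD and 32 to 55 in B6 (0.56, limma adjusted p = 0.34). The 8 dendritic cell markers summed to 1257 to 1462 in NOD and 2157 to 2188 in B6, with Cd74, Zbtb46 and H2-Aa called lower in NOD (the calls of H2-Aa and Zbtb46 were lost without the trend and in 5 and 3 of the 6 omissions of a library), and with Clec9a at 0 in every NOD library and at 0 or 1 in B6. The 5 NK markers summed to 375 to 559 in NOD and 445 to 604 in B6. This sum was mainly Nkg7 (311 to 474 in NOD, 423 to 585 in B6), which overlapped between the strains. Eomes had 76, 21 and 59 in NOD libraries 2, 10 and 18, against 17, 16 and 6 in B6 libraries 4, 12 and 20. It rose by 1.86 on the log2 scale without passing the test (limma adjusted p = 0.0501). The other 3 NK markers were below 20 in every library. The 6 immature thymocyte markers summed to 238 to 320 in NOD and 250 to 304 in B6. Of 4 tested, 1 was called higher and 1 lower in NOD (4.59% and 5.30% over all tested genes). Cd8a, whose product the sort selected against, had 124, 35 and 100 normalized counts in NOD libraries 2, 10 and 18, against 10, 17 and 18 in B6 libraries 4, 12 and 20 (2.31, limma adjusted p = 0.0075, and 0.051 without NOD library 18). Rag1, a recombinase gene of immature lymphocytes, had 49, 55 and 67 in NOD libraries 2, 10 and 18, against 155, 100 and 111 in B6 libraries 4, 12 and 20 (-1.07, limma adjusted p = 0.017, with 0.066 without NOD library 2 and 0.099 without B6 library 4). Cd8b1 overlapped between the strains (117 to 135 in NOD, 99 to 131 in B6). Rag1 moved in the direction of Mndal, Ifi206, Ifi208, Ifi209 and Ifi213, Cd8a in that of Ifi204, and their part in these results was not tested. The dendritic cell sum was mainly Zbtb46 (852 in NOD, 1190 in B6) and Cd74 (352 in NOD, 731 in B6). Itgax (2 to 16), Flt3 (4 to 9), Siglech (1 to 8) and Xcr1 (56 to 99) overlapped between the strains. The sum moved in the direction of Mndal, Ifi206, Ifi208, Ifi209 and Ifi213 and against that of Ifi204, and its part in these results was not tested.

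The genes whose profile over the 6 libraries came nearest to each of the tested 6 were found by the root mean square difference of centred log2 values, among genes averaging at least 100 normalized counts. For Ifi204 the nearest was Igsf23 (difference 0.06 log2 units, log2 fold change 2.33), and for Mndal it was Ttyh3 (0.05, log2 fold change -0.53). Dennd4c was nearest to Ifi203 (0.04) and Ldah to Aim2 (0.03). The profile of Ifi202b was matched most closely by Gm14165 (0.25), and that of the 6-gene sum by Gm48137 (0.03). The 6 libraries fall into 2 strains, and such likeness rests largely on the difference between them.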

How the data were processed

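Per the labels' protocols, total RNA libraries (TruSeq Standard Total RNA LT) were made from sorted thymic Treg. Trimmomatic, STAR, DESeq2 and mm10 are named in the submitters' processing notes, and the sources used here do not give the counter or its annotation, multi-match and strand settings. The deposited table holds, per the file headers, scores: gene counts divided by size factors and rounded to whole numbers by the authors. It also holds the authors' log2 fold changes, p-values and adjusted p-values from DESeq2. Columns name the strain but no replicate number of the labels. No sample columns were left unused (0).

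limma 3.58.1 in R 4.3.3 was fitted to log2(normalized count + 1) with strain as the only term and a variance trend, on genes reaching 10 normalized counts in 3 or more libraries (2 in fits that omit a library). Two-sided p-values were adjusted by Benjamini-Hochberg over all tested genes. The median log2 fold change of all tested genes was 0.01. The procedure was tested on simulated data. Raw counts are not in the table, so no count model was run. Each interval covers the spread between libraries only.

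The genes and lists were chosen with earlier results of these data known. All 6 genes and any gene of the cluster, inflammasome, DNA sensing or interferon lists could be named whatever its call, along with tested genes within 1 Mb, marker genes and the nearest profile per gene. Coordinates and exon lengths are from GENCODE M21 (GRCm38, the assembly of mm10), joined by symbol, and promoters from RefSeq (GRCm38.p6). Alternatives were other pseudocounts (0.5 and 10), filters (none and 50), scalings, no trend, array weights and leaving out each library.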

Additional observations from a re-analysis of the deposited data

How the results depend on the processing

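Ifi204 kept its call in every alternative run, and Aim2 and Ifi203 stayed without a call in all of them. Ifi202b gained a call with a pseudocount of 10 (log2 fold change 1.02), and over the omission of each library ran from 1.75 to 3.25 (adjusted p of 0.027 to 0.19). Mndal lost its call without the variance trend (-0.50, adjusted p = 0.091) and ranged from -0.54 to -0.41 over the omission of each library (adjusted p of 0.021 to 0.070). Among the 6 genes, the number called higher was 2 with a pseudocount of 10 and 1 to 2 over omissions, and the number called lower was 0 without the trend and 0 to 1 over omissions. With array weights, 1247 of all genes were called higher and 1434 lower, and the counts were 4 higher for the inflammasome list, 2 higher and 1 lower for DNA sensing and 1 higher for the interferon list. Over omissions, all genes called ran from 490 (without NOD library 18) to 781 higher and from 569 (without B6 library 4) to 1011 lower. The other cluster genes held 2 higher calls with quantile normalization, 0 without the trend and 0 to 1 over omissions. The inflammasome list held 1 lower call without the trend, and 1 with the filter at 50, which removes low genes from the test. DNA sensing held 0 higher calls without the trend, 0 to 1 higher and 0 to 1 lower over omissions. The log2 ratio of the 6-gene sum was -0.27, and -0.67 when all cluster rows were summed, an alternative chosen after seeing the data. Where a call changed, the cause was not tested, except as stated. Among the genes refitted under the alternatives, the direction reversed only for Foxp3, which had no call (between -0.13 and 0.10 with single libraries left out). Of 471 comparisons of single genes other than the 6 with an alternative, 415 kept their side of the threshold, 52 lost a call, 2 gained one and 2 reversed. No paired analysis was possible because the table's columns carry no replicate number of the labels. Depth limits Ifi202b, Ifi205 and Ifi207, whose values are a few normalized counts.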

Other observations

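In the authors' deposited table, the mean was above that of the 6 libraries' columns for every cluster gene but Ifi207 (ratio 0.771). The deposited mean covers more than these columns: over 9733 genes averaging at least 100 normalized counts, its ratio to the 6-library mean had a median of 0.963, with 5% of genes below 0.613 and 5% above 1.48. In the authors' deposited table the mean of Ifi208 was 973 normalized counts, 3.37 times the 289 of the 6 libraries, a ratio above that of 99.9% of those genes. For Ifi206 the ratio was 2.62, for Ifi214 2.50, for Ifi213 2.20 and for Ifi204 1.96. For Ifi203 it was 1.63, for Ifi209 1.61 and for Mndal 1.32, while Aim2 stood at 1.13. The samples behind the deposited mean were not analysed here.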
